A study of Oryctolagus cuniculus with 17 samples.

Results

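WNT proteins are secreted, lipid-modified ligands that bind Frizzled receptors on neighbouring cells, and the 50 genes described here encode the rabbit counterparts of these ligands, their receptors, their secreted antagonists and a few feedback genes. They were chosen by human gene symbol: every row of the count table whose human ortholog was a WNT, FZD, SFRP, DKK or RSPO family member, or 1 of LRP5, LRP6, LGR4 to LGR6, ROR1, ROR2, PORCN, WLS, WIF1, AXIN2, NKD1, NKD2, NOTUM, RNF43, ZNRF3, LEF1 and TCF7, with the row of the highest total count kept for each symbol. The 50 genes come from 13827 rows in all, and 49 of them passed the filter on low counts. The remaining gene, WNT10A, had between 1 and 12 counts in every sample and was not tested. WNT1, WNT3, WNT7B, WNT10B, FZD10, RSPO4, DKK4, NOTUM and NKD2 were not analysed here.

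The samples were New Zealand White rabbit pups taken preterm by C-section at 28 days of gestation, which then lived in incubators with either 21% O2 (normoxia, NT) or 95% O2 (hyperoxia, HT). Right lung homogenate, as the labels name it, was the source of the polyA RNA, which was sequenced after 3, 5 or 7 days, with 3 samples in each of NT3, NT5, NT7, HT3 and HT7 and 2 samples in HT5. Every pup was preterm, so the normoxia groups are preterm controls, and no term-born lung was part of the comparison. The labels do not say whether the samples of a group came from separate litters, so the p-values measure the spread between these samples only.

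In the canonical branch of the pathway, a WNT ligand bridges a Frizzled receptor and LRP5 or LRP6, the destruction complex is switched off, and beta-catenin accumulates and works with TCF/LEF factors in the nucleus. Other ligands, WNT5A among them, act largely through ROR receptors and the planar cell polarity and calcium branches. R-spondins binding LGR4, LGR5 or LGR6 protect Frizzled receptors from the ubiquitin ligases RNF43 and ZNRF3, while DKK proteins block the LRP co-receptors and SFRP proteins and WIF1 bind the ligands themselves. In the developing lung, WNT2 and WNT2B are needed for the early specification of the organ, WNT5A takes part in the growth of airways and mesenchyme, and AXIN2 marks alveolar cells that receive a canonical signal.

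Each sample held between 13123731 and 18111086 counts when every locus was counted once, and levels are given as CPM. The denominator of CPM is the sum over all genes tested, rows that share a locus each included, times a TMM factor of 0.958 to 1.05, and this scaled total was between 14544632 and 19845253 counts. CPM is not divided by gene length, so levels are compared between samples for 1 gene and never between genes. A gene is said to have risen or fallen where its Benjamini-Hochberg adjusted p in edgeR's quasi-likelihood test, fitted to all 13142 genes tested, was under 0.05. The study's stricter definition of a differentially expressed gene (DEG) asked for an adjusted p under 0.01 and a log2 fold change (log2FC) above 2 or below -2. At this depth 3 counts correspond to between 0.151 and 0.206 CPM. These figures cover counting error only.

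More of the WNT genes passed the test on each later day, and most of those that passed were lower in hyperoxia. On day 3 the test passed for 1 of 49 genes, FZD1, which was lower. On day 5 it passed for 20 genes, 17 lower and 3 higher, and on day 7 for 27 genes, 24 lower and 3 higher. Of the 17 genes that fell on day 5, 16 were also among the 24 that fell on day 7, and FZD9 was the exception. Both comparisons were parts of 1 fit with a shared estimate of the spread. The matching overlap over all genes is not given here. LGR5, a receptor of R-spondins, and DKK1, a secreted LRP antagonist, rose on both days, the ligand WNT9B rose on day 5 and the antagonist SFRP1 rose on day 7. Without HT5 replicate 2 the day 5 count was 5 genes, all lower: FZD1, FZD2, WNT4, ROR2 and LGR6, while 8.65% of all genes were called in either direction in that fit. On day 7 the count was between 22 and 32 whichever sample was left out, and 22 of the 27 calls held in all 6 of those fits.

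Over all genes tested the calls were split evenly between the directions. On day 3, 0.517% of the genes were higher and 0.517% lower, against 0 and 1 of the 49 WNT genes. On day 5 the shares were 15.9% higher and 15.4% lower, and on day 7 they were 23.7% higher and 23.7% lower. The 24 WNT genes lower on day 7 were thus set against a background in which about as many genes rose as fell. The median log2FC of the 49 genes was -0.19 on day 3, -0.55 on day 5 and -0.68 on day 7, whereas the median over all genes tested was 0.00, -0.02 and -0.01.

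By the study's DEG definition no WNT gene passed on day 3, where 0.0533% of all genes did, DESeq2 also called 0, and 11 of the 49 genes had an unadjusted p under 0.05, as did 15.3% of all genes. WNT9B alone passed on day 5 (1.58% of all genes). On day 7 the definition was met by 7 of the 49 genes against 4.59% of all genes: DKK1, SFRP1 and LGR5 were higher, and NKD1, LGR6, TCF7 and WNT3A were lower. The day 7 count of DEGs was 12 without HT7 replicate 2 and 4 without HT7 replicate 3 or without NT7 replicate 2. Every HT sample lay below every NT sample for 13 of the 49 genes on day 3 (13.9% of all genes) and for 26 on day 7 (27.2% of all genes).

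**Figure D1:**
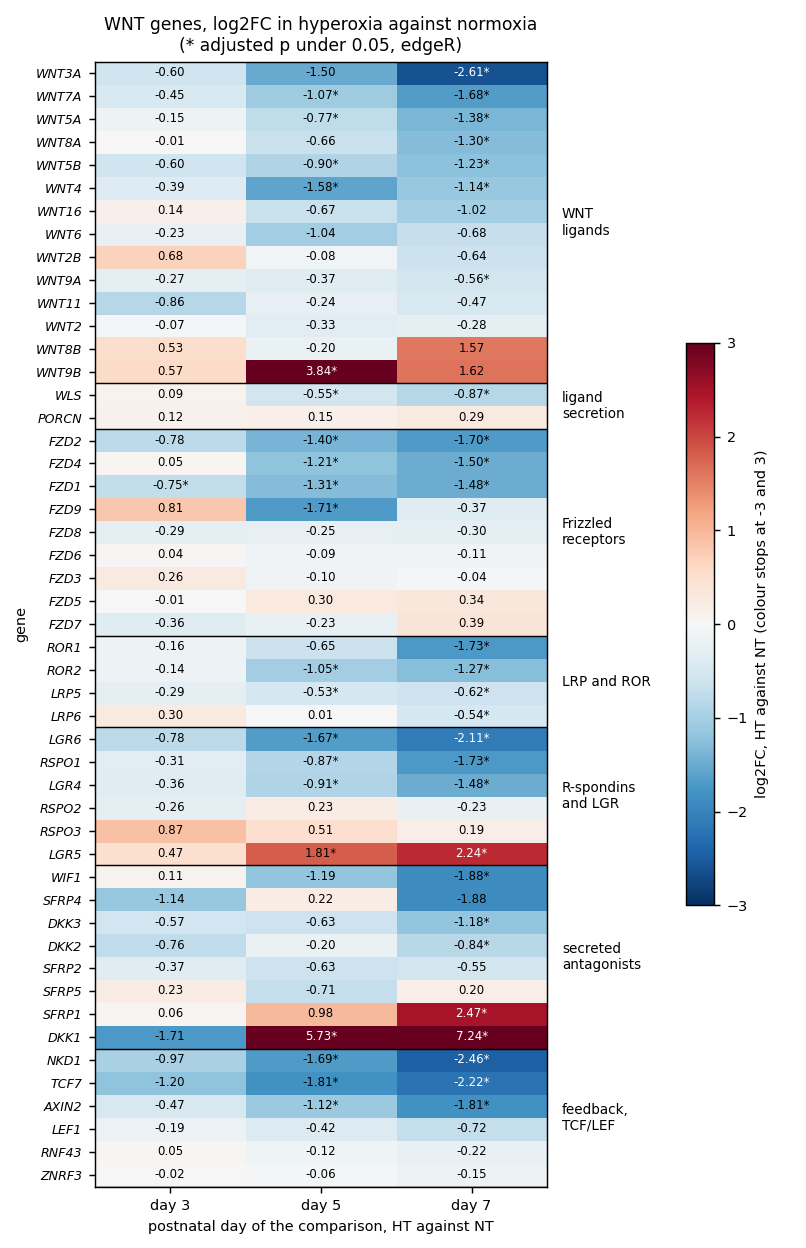
Log2FC of hyperoxia against normoxia for the 49 WNT genes tested (rows, grouped by role) on days 3, 5 and 7 (columns), as fitted by edgeR, with blue for lower and red for higher values and an asterisk for an adjusted p under 0.05. Blue fills most of the day 5 and day 7 columns, and the darkest red cells are DKK1, SFRP1, LGR5 and, on day 5, WNT9B.

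The normoxic lungs themselves did not show a change that passed the test. Between NT3 and NT7 edgeR called 0 of the 49 genes, DESeq2 called 0, and 9 had an unadjusted p under 0.05, with a median log2FC of -0.21. Among all genes tested the share called was 0% in either direction, and 6.27% had an unadjusted p under 0.05. The contrast of the hyperoxia effect on day 7 with that on day 3 was tested as an interaction and passed for 17 genes: 14 shifted down (11.0% of all genes) and 3 shifted up (9.52% of all genes). WNT5A, WLS, ROR2, RSPO1, FZD4 and SFRP1 kept this call in all 12 fits that left out a sample, and the number of calls fell to 8 to 11 without HT3 replicate 1, HT7 replicate 1, HT7 replicate 3, NT3 replicate 1, NT3 replicate 3 or NT7 replicate 2.

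Cell type markers were summed in each sample, because in whole-lung RNA fewer cells of a type and less RNA per cell cannot be told apart. Alveolar type 2 markers (6 genes, among them SFTPC) summed to 8144 to 23329 CPM over all 17 samples, and type 1 and endothelial markers were abundant too, as the label of lung tissue implies. On day 7 the 6 endothelial markers summed to 842 to 1249 CPM in hyperoxia against 2321 to 2851 CPM in normoxia, and 5 of the 6 fell. The 6 alveolar type 1 markers summed to 1984 to 2635 CPM against 6756 to 7605 CPM, with 4 of 6 lower. The 8 lung fibroblast markers summed to 3977 to 4326 CPM against 5963 to 7459.6 CPM, with 5 of 8 lower and 1 higher.

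Other lists were apart on day 7 as well. The sums of pericyte markers (521 to 605 against 661 to 969.9 CPM, 4 of 6 lower), ciliated cell markers (122 to 171 against 241 to 293 CPM, 2 of 6 lower) and mesothelial markers (13.4 to 54.9 against 125 to 186 CPM, 1 of 5 lower) lay wholly below normoxia. The 7 macrophage markers summed to 1697 to 2319 against 1094 to 1308 CPM, wholly above it, although 1 rose and 1 fell. The 5 neutrophil markers summed to 2749.9 CPM in HT7 replicate 1 and to 861 and 1178 CPM in the other HT7 samples, against 796 to 965 CPM in NT7.

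On day 5 the test passed as lower for 5 of 6 endothelial, 4 of 6 alveolar type 1 and 6 of 8 fibroblast markers. Already on day 3 the sums of endothelial (2277 to 2724 against 2849 to 3192 CPM) and fibroblast markers (5609 to 5931 against 6754 to 7727 CPM) were wholly below normoxia. So were those of smooth muscle, heart muscle and ciliated cell markers, and that of neutrophil markers was wholly above it (895 to 1254 against 259 to 617 CPM). By the single-gene test 1 of 6 endothelial and 1 of 3 heart muscle markers passed as lower on day 3. Of the 8 fibroblast, 6 smooth muscle, 6 ciliated cell and 5 neutrophil markers 0 passed. Lymphocyte markers were low everywhere, at 3.33 to 4.596 CPM in HT7 and 9.71 to 19.2 CPM in NT7, and MS4A1 was at 0 in 1 sample. The part of these shifts in the WNT results was not tested.

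Within hyperoxia the samples of a day were not alike. Replicate 2 of HT7 had alveolar type 2 markers at 19209 CPM against 8315 and 9217 CPM in the others, and it was the highest of the 3 HT7 samples for 18 of the 24 WNT genes that fell (75%, against 65.5% of all genes that fell). In HT5 the type 2 markers were at 23329 CPM in replicate 1 and 8144 CPM in replicate 2, and replicate 2 was the lower sample for 14 of the 17 WNT genes that fell (82.4%, against 81.4%). Skeletal muscle markers reached 417 CPM in HT3 replicate 2 and 375 CPM in HT5 replicate 1, against at most 115 CPM in the other 15 samples.

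Feedback genes that a canonical WNT signal itself induces are the usual readout of the pathway, and they are described first, together with the TCF/LEF factors. Of these 6 genes 3 fell on both day 5 and day 7, when 15.4% and 23.7% of all genes fell. They were the feedback genes AXIN2 and NKD1 and the TCF/LEF factor TCF7, while the feedback genes RNF43 and ZNRF3 did not pass. AXIN2 (chr19:51719224-51747920 on the build OryCun2.0, as for all positions given), a scaffold of the destruction complex and the classical beta-catenin target, was at 137, 149 and 125 on day 3, 93.7, 125 and 108 on day 5 and 103, 92.6 and 106 CPM on day 7 in normoxia. In hyperoxia it was at 102, 87.1 and 107 on day 3, 64.1 and 36.3 on day 5 and 17.996, 47.2 and 21.2 CPM on day 7. Every HT sample lay below every NT sample of its day, and HT7 replicate 2 stood well above the other HT7 samples. AXIN2 fell on day 5 with a log2FC of -1.12 ± 0.32 SE (adjusted p = 0.0177) and on day 7 with -1.81 ± 0.29 SE (adjusted p = 0.00017), while the day 3 value of -0.47 ± 0.28 SE (adjusted p = 0.447) did not pass the test. The day 5 call was lost without HT5 replicate 2 and without NT5 replicate 2, where the adjusted p reached 0.221.

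NKD1 (scaffold GL018732:196685-208282), which binds Dishevelled and dampens the signal, was at 179.8, 188 and 168 on day 3, 137, 187 and 167 on day 5 and 106, 125 and 142 CPM on day 7 in normoxia. The hyperoxia samples held 108, 49.96 and 117 on day 3, 65.7 and 35.9 on day 5 and 15.5, 35.9 and 16.4 CPM on day 7. The groups did not overlap on any of the 3 days, and the lowest values were those of HT7 replicates 1 and 3. The log2FC went from -0.97 ± 0.33 SE (adjusted p = 0.175) on day 3, which did not pass, to -1.69 ± 0.39 SE (adjusted p = 0.00526) on day 5 and -2.46 ± 0.35 SE (adjusted p = 6.76e-05) on day 7, both of which did. Without HT5 replicate 2 the day 5 adjusted p was 0.0995.

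TCF7 (chr3:16914482-16971140), a TCF/LEF factor that is also a target of the pathway and is abundant in T cells, had normoxia values of 33.3, 37.7 and 39.6 on day 3, 42.3, 59.1 and 38.6 on day 5 and 17.3, 40.7 and 42.8 CPM on day 7. The HT values were 12.4, 13.7 and 21.999 on day 3, 17.8 and 8.82 on day 5 and 7.09, 8.95 and 5.58 CPM on day 7. Again no HT sample reached an NT sample of the same day, although NT7 replicate 1 lay well under the other NT7 samples. TCF7 fell on day 5 with a log2FC of -1.81 ± 0.40 SE (adjusted p = 0.00384) and on day 7 with -2.22 ± 0.35 SE (adjusted p = 0.000154). Of the 6 lymphocyte markers 5 fell on day 7 and none passed on day 5, and their part was not tested. The day 5 call was lost without HT5 replicate 2 (adjusted p = 0.079).

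LEF1, also a TCF/LEF factor, was at 16.1, 17.4 and 17.4 on day 3, 18.2, 16.8 and 13.4 on day 5 and 10.7, 15.9 and 17.9 CPM on day 7 in normoxia and 13.7, 9.36 and 21.7 on day 3, 15.8 and 8.39 on day 5 and 9.23, 7.62 and 10.04 CPM on day 7 in hyperoxia. Its groups overlapped on days 3 and 5, and on day 7 all HT samples were below all NT samples by a small margin. The day 7 log2FC of -0.72 ± 0.29 SE (adjusted p = 0.0536) did not pass the test, except without NT7 replicate 1, where it was -0.91 (adjusted p = 0.0272). RNF43 and ZNRF3, the ligases that remove Frizzled receptors and are feedback targets as well, overlapped between groups on every day, with log2FC between -0.22 and 0.05 for RNF43 and between -0.15 and -0.02 for ZNRF3. Neither passed the test on any day.

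**Figure D2:**
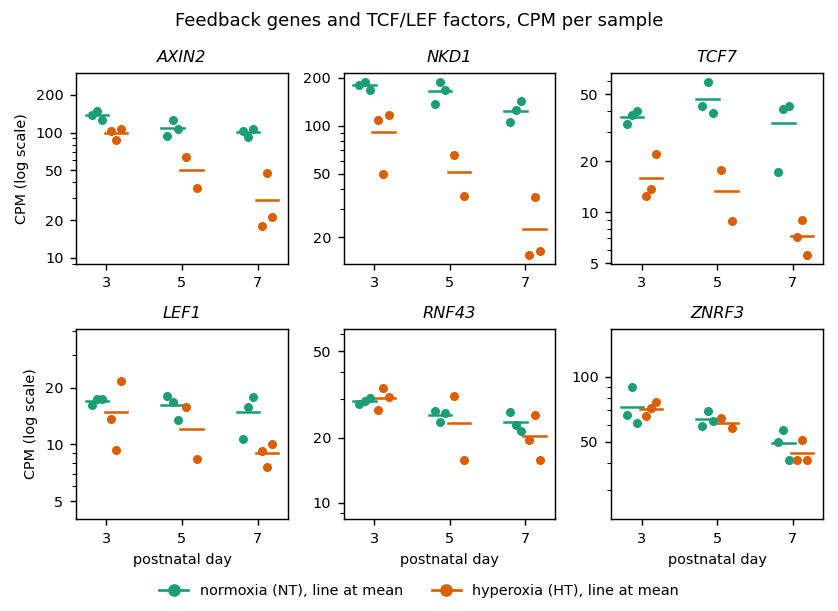
CPM per sample (log axis) of AXIN2, NKD1, TCF7, LEF1, RNF43 and ZNRF3 against postnatal day, green for normoxia and orange for hyperoxia, each point 1 sample and each line a group mean. The orange points of AXIN2, NKD1 and TCF7 lie below the green ones on each day, and those of RNF43 and ZNRF3 are mixed with them.

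Among the ligands, 14 of 15 were tested, and on day 5 4 fell and 1 rose, whereas on day 7 7 fell and none rose, against 15.4% of all genes lower and 15.9% higher on day 5 and 23.7% each way on day 7. The median log2FC of the 14 was -0.19, -0.67 and -0.85 on days 3, 5 and 7. WNT5A (chr9:22336019-22351608), the main ROR-dependent ligand of the lung mesenchyme, was at 88.3, 96.8 and 79.7 on day 3, 75.3, 90.7 and 80.6 on day 5 and 68.97, 82.97 and 74.6 CPM on day 7 in normoxia. In hyperoxia WNT5A was at 77.4, 85.1 and 75.7 on day 3, 57.1 and 39.4 on day 5 and 25.2, 31.3 and 30.6 CPM on day 7. On day 3 the groups overlapped, and on days 5 and 7 they were apart. WNT5A fell on day 5 (log2FC -0.77 ± 0.16 SE, adjusted p = 0.00252) and on day 7 (log2FC -1.38 ± 0.14 SE, adjusted p = 5.61e-06), the smallest adjusted p among the WNT genes. The day 7 effect minus the day 3 effect was -1.23 ± 0.20 SE (adjusted p = 0.00165) on the log2 scale. Only leaving out HT5 replicate 2 ended a call of WNT5A, on day 5 (adjusted p = 0.0634).

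WNT5B, its closest relative, was at 8.85, 8.47 and 8.48 on day 3, 9.21, 8.27 and 8.68 on day 5 and 9.64, 8.84 and 7.97 CPM on day 7 in normoxia and at 5.32, 6.42 and 5.31 on day 3, 4.26 and 5.09 on day 5 and 4.095, 4.72 and 2.46 CPM on day 7 in hyperoxia. The groups did not overlap on any day. Its log2FC of -0.60 ± 0.21 SE (adjusted p = 0.18) on day 3 did not pass, and it fell on day 5 with -0.90 ± 0.24 SE (adjusted p = 0.0111) and on day 7 with -1.23 ± 0.21 SE (adjusted p = 0.000281). Leaving out either HT5 sample ended the day 5 call, with an adjusted p of up to 0.0663.

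WNT4, a ligand best known from kidney development, had normoxia values of 14.2, 11.5 and 13.3 on day 3, 9.09, 19.9 and 17.6 on day 5 and 12.6, 11.5 and 10.3 CPM on day 7. The HT samples held 11.4, 8.25 and 10.2 on day 3, 5.09 and 5.302 on day 5 and 5.48, 4.72 and 5.43 CPM on day 7. The HT samples of days 5 and 7 were all within a narrow band below the NT samples of their day, and NT5 replicate 1 was the lowest of its group. WNT4 fell with a log2FC of -1.58 ± 0.28 SE (adjusted p = 0.000991) on day 5 and -1.14 ± 0.24 SE (adjusted p = 0.00125) on day 7, and both calls held in every fit that left out a sample.

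WNT7A, a ligand made by many epithelia, was at 11.3, 19.1 and 13.3 on day 3, 13.6, 19.99 and 14.7 on day 5 and 12.8, 15.1 and 12.02 CPM on day 7 in normoxia and 10.5, 9.97 and 11.6 on day 3, 9.56 and 5.84 on day 5 and 3.75, 6.11 and 2.66 CPM on day 7 in hyperoxia. On day 3 the groups overlapped, and on days 5 and 7 every HT sample was lower. The log2FC was -1.07 ± 0.32 SE (adjusted p = 0.0221) on day 5 and -1.68 ± 0.29 SE (adjusted p = 0.000323) on day 7. The day 5 call was lost without HT5 replicate 2 and without NT5 replicate 2 (adjusted p up to 0.238).

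WNT3A (scaffold GL019112:105063-138556), a canonical ligand, was at 7.84, 9.37 and 9.102 on day 3, 6.91, 9.29 and 10.6 on day 5 and 6.698, 8.905 and 6.11 CPM on day 7 in normoxia. The hyperoxia values were 5.56, 5.21 and 6.54 on day 3, 5.43 and 0.974 on day 5 and 0.461, 2.78 and 0.359 CPM on day 7. In HT5 and HT7 the samples were far apart: replicate 1 of HT5 and replicate 2 of HT7, the samples with the higher type 1 and type 2 marker sums, were the higher ones. WNT3A fell on day 7 with a log2FC of -2.61 ± 0.63 SE (adjusted p = 0.00336), the lowest of the 49 genes, and with -4.11 without HT7 replicate 2. Its day 5 value of -1.50 ± 0.67 SE (adjusted p = 0.0993) did not pass, and it was -3.19 (adjusted p = 0.0111) without HT5 replicate 1 and -0.74 (adjusted p = 0.532) without HT5 replicate 2.

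WNT2 and WNT2B, the mesenchymal ligands of early lung specification, and WNT11, a non-canonical ligand, did not pass on any day. WNT2 was at 34.8, 44.4 and 49.1 on day 3, 36.5, 35.6 and 40.4 on day 5 and 36.7, 29.5 and 35.1 CPM on day 7 in normoxia and 52.2, 32.5 and 37.5 on day 3, 34.1 and 25.5 on day 5 and 18.6, 36.6 and 28.6 CPM on day 7 in hyperoxia, and the groups overlapped on days 3 and 7. WNT2B was at 40.7, 56.4 and 34.2 on day 3, 39.1, 30.04 and 32.2 on day 5 and 48.5, 41.8 and 34.5 CPM on day 7 in normoxia and 56.7, 102 and 51.6 on day 3, 36.2 and 27.97 on day 5 and 22.7, 33.2 and 24.1 CPM on day 7 in hyperoxia. For WNT2B the HT samples were high on day 3, led by replicate 2, and low on day 7, and the difference between the day 7 and day 3 effects, -1.32 ± 0.36 SE (adjusted p = 0.0206), passed the test, although leaving out HT3 replicate 2, HT7 replicate 1, HT7 replicate 3 or NT3 replicate 3 ended the call (adjusted p up to 0.0546).

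WNT11 held 35.4, 32.1 and 33.1 on day 3, 27.9, 33.03 and 32.8 on day 5 and 22.8, 25.8 and 29.7 CPM on day 7 in normoxia and 18.7, 11.7 and 24.9 on day 3, 18.6 and 34.3 on day 5 and 26.2, 12.3 and 17.8 CPM on day 7 in hyperoxia. It lay below normoxia in all HT3 samples (log2FC -0.86 ± 0.29 SE, adjusted p = 0.165), while on days 5 and 7 the groups overlapped, with log2FC of -0.24 and -0.47. Of the other ligands, WNT8A (log2FC -1.30 ± 0.43 SE, adjusted p = 0.0219) and WNT9A (log2FC -0.56 ± 0.21 SE, adjusted p = 0.0415) fell on day 7. The WNT8A call was lost without HT7 replicate 1 or NT7 replicate 2 (adjusted p up to 0.139), and that of WNT9A was lost in 5 of 6 fits, those without HT7 replicate 1, HT7 replicate 3 or any 1 of the NT7 samples (up to 0.146). WNT6, WNT8B and WNT16 did not pass on any day, with day 7 log2FC of -0.68, 1.57 and -1.02.

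WLS, the carrier that takes lipid-modified WNT proteins to the cell surface, was at 154, 134 and 148 on day 3, 135, 134 and 143 on day 5 and 148, 142 and 164 CPM on day 7 in normoxia. Under hyperoxia it was at 166, 172 and 129 on day 3, 111 and 76.9 on day 5 and 80.003, 86.1 and 83.2 CPM on day 7. The groups overlapped on day 3 and were apart on days 5 and 7. WLS fell with a log2FC of -0.55 ± 0.15 SE (adjusted p = 0.0131) on day 5 and -0.87 ± 0.13 SE (adjusted p = 0.000122) on day 7, and the difference between the day 7 and day 3 effects was -0.96 ± 0.19 SE (adjusted p = 0.00401). Without HT5 replicate 2 the day 5 call was lost, with a log2FC of -0.32 (adjusted p = 0.206), and without HT5 replicate 1 the log2FC was -0.83. PORCN, the enzyme that attaches the lipid, did not pass, with log2FC of 0.12, 0.15 and 0.29 on the 3 days.

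**Figure D3:**
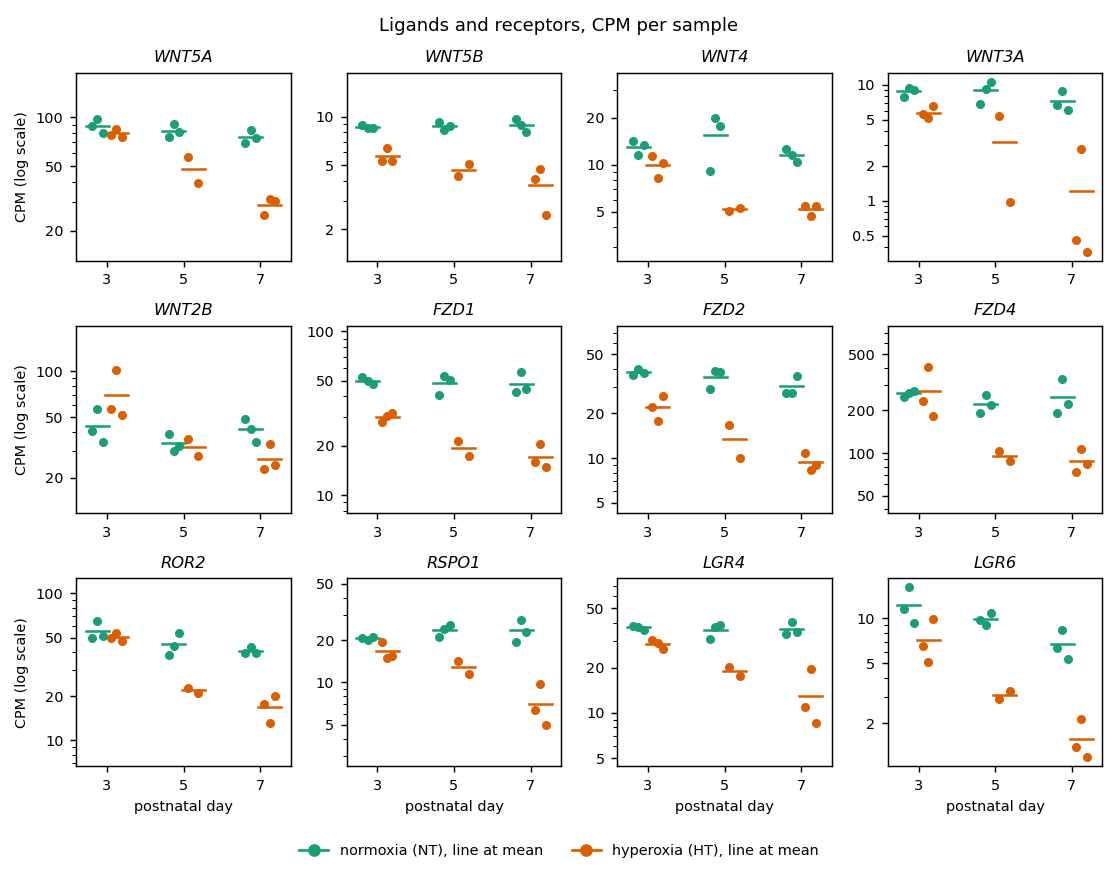
CPM per sample (log axis) of 5 ligands and 7 receptor or R-spondin genes against postnatal day, green for normoxia and orange for hyperoxia, each point 1 sample and each line a group mean. FZD1 and FZD2 are already apart on day 3, WNT5A, FZD4 and ROR2 are mixed on day 3 and apart afterwards, and WNT2B is mixed on day 5.

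Of the 9 Frizzled receptors tested, 4 fell on day 5 and 3 on day 7, and none rose, where 15.4% and 23.7% of all genes tested fell on these days. The 3 that fell on both days were FZD1, FZD2 and FZD4, while FZD3, FZD5, FZD6 and FZD8 passed on no day, with log2FC between -0.30 and 0.34 over the 3 days. FZD1 (chr10:37395628-37398164) was at 52.8, 49.7 and 47.6 on day 3, 40.8, 53.7 and 50.1 on day 5 and 42.9, 56.2 and 44.3 CPM on day 7 in normoxia. The HT samples held 27.8, 30.2 and 31.5 on day 3, 21.5 and 17.4 on day 5 and 15.98, 20.6 and 14.9 CPM on day 7. All 8 HT samples lay below all 9 NT samples. On day 3 the endothelial, fibroblast, smooth muscle, heart muscle and ciliated cell marker sums were, as FZD1, below normoxia in every HT sample. Their part was not tested. FZD1 was the only WNT gene of the 49 to fall on day 3 (log2FC -0.75 ± 0.15 SE, adjusted p = 0.0326), and its log2FC was -1.31 ± 0.18 SE (adjusted p = 0.000211) on day 5 and -1.48 ± 0.15 SE (adjusted p = 6.19e-06) on day 7. The day 3 call did not hold when any 1 of the 6 HT3 and NT3 samples was left out (adjusted p between 0.0574 and 0.135) or when same-numbered samples were treated as pairs (adjusted p with the replicate block = 0.0725), while the log2FC stayed between -0.79 and -0.70 in the leave-out fits.

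FZD2 (chr19:44785350-44824532) had normoxia values of 36.2, 39.9 and 37.5 on day 3, 29.3, 38.4 and 37.9 on day 5 and 27.6, 27.7 and 35.9 CPM on day 7. In hyperoxia it was at 21.9, 17.8 and 26.3 on day 3, 16.8 and 10.01 on day 5 and 10.8, 8.28 and 9.07 CPM on day 7. The groups were apart on all 3 days. FZD2 fell with a log2FC of -1.40 ± 0.23 SE (adjusted p = 0.000711) on day 5 and -1.70 ± 0.20 SE (adjusted p = 1.81e-05) on day 7, and the day 3 value of -0.78 ± 0.20 SE (adjusted p = 0.0751) did not pass in edgeR.

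FZD4 (chr1:129791089-129818141), the receptor of norrin and of canonical ligands in vascular endothelium, was at 249, 266 and 276 on day 3, 190.5, 257 and 217 on day 5 and 193, 331 and 221 CPM on day 7 in normoxia. The hyperoxia samples were at 233, 404 and 182 on day 3, 104 and 87.98 on day 5 and 73.4, 107 and 83.3 CPM on day 7. On day 3 HT replicate 2, the sample with raised skeletal muscle markers, was the highest of all and the groups overlapped, and afterwards every HT sample was lower. FZD4 fell with a log2FC of -1.21 ± 0.30 SE (adjusted p = 0.00751) on day 5 and -1.50 ± 0.26 SE (adjusted p = 0.000317) on day 7, and the day 7 effect minus the day 3 effect was -1.54 ± 0.36 SE (adjusted p = 0.00986). The endothelial marker sum was lower in every HT sample on days 5 and 7, as FZD4 was, and also on day 3, when FZD4 was not. Its part was not tested. The day 5 call was lost without HT5 replicate 2 (adjusted p = 0.0959).

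FZD9 fell on day 5 (log2FC -1.71 ± 0.61 SE, adjusted p = 0.0455), a call lost without HT5 replicate 2, NT5 replicate 2 or NT5 replicate 3 (adjusted p up to 0.37). Its day 5 log2FC was -2.90 without HT5 replicate 1 and -1.02 without HT5 replicate 2, and its day 7 log2FC of -0.37 did not pass. FZD7 passed on no single day, but its log2FC of -0.36 on day 3 and 0.39 on day 7 gave a difference of 0.75 ± 0.23 SE (adjusted p = 0.0321), a call that 7 of the 12 leave-out fits did not keep (adjusted p up to 0.0793). Those 7 fits left out replicate 1 of HT3, replicates 1 and 3 of HT7, replicates 1 and 2 of NT3, or replicates 1 and 3 of NT7.

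All 4 of the LRP co-receptors and ROR receptors fell on day 7, and 2 of them, ROR2 and LRP5, fell on day 5 as well, against 23.7% of all genes lower on day 7 and 15.4% on day 5. ROR2 (chr1:76325811-76467238), a tyrosine kinase-like receptor of WNT5A, was at 50.02, 64.9 and 51.3 on day 3, 38.2, 43.7 and 53.6 on day 5 and 39.4, 43.4 and 39.4 CPM on day 7 in normoxia. In hyperoxia it was at 49.8, 53.4 and 47.2 on day 3, 22.7 and 21.1 on day 5 and 17.6, 13.1 and 20.03 CPM on day 7. The groups overlapped on day 3 and were well apart from day 5 on. ROR2 fell with a log2FC of -1.05 ± 0.18 SE (adjusted p = 0.000999) on day 5 and -1.27 ± 0.16 SE (adjusted p = 2.91e-05) on day 7, and the day 7 effect differed from that of day 3 by -1.13 ± 0.22 SE (adjusted p = 0.00459). None of these 3 calls was lost when a sample was left out.

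ROR1, its paralog, was at 53.3, 71.6 and 61.95 on day 3, 68.2, 69.7 and 47.6 on day 5 and 38.9, 60.8 and 44.6 CPM on day 7 in normoxia and 53.6, 65.2 and 48.1 on day 3, 58.03 and 20.9 on day 5 and 11.4, 22.6 and 9.58 CPM on day 7 in hyperoxia. The 2 HT5 samples were far apart, with replicate 1 inside the NT5 range, and on day 7 all HT samples were lower. ROR1 fell on day 7 (log2FC -1.73 ± 0.36 SE, adjusted p = 0.00107), and its day 5 value of -0.65 ± 0.39 SE (adjusted p = 0.213) did not pass. That value was -1.56 (adjusted p = 0.0128) without HT5 replicate 1 and -0.11 (adjusted p = 0.892) without HT5 replicate 2.

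LRP5, 1 of the canonical co-receptors, was at 37.9, 52.1 and 46.9 on day 3, 38.8, 54.4 and 39.4 on day 5 and 37.1, 42.4 and 41.7 CPM on day 7 in normoxia and 34.4, 38.3 and 39.5 on day 3, 34.03 and 27.1 on day 5 and 23.4, 27.03 and 28.4 CPM on day 7 in hyperoxia. On day 3 the groups overlapped. On days 5 and 7, by less than for ROR2, every HT sample of LRP5 was below every NT sample. It fell with a log2FC of -0.53 ± 0.18 SE (adjusted p = 0.0318) on day 5, a call lost without HT5 replicate 2 or NT5 replicate 2 (adjusted p up to 0.274), and -0.62 ± 0.16 SE (adjusted p = 0.00438) on day 7. Without NT5 replicate 2 the day 5 log2FC of LRP5 was -0.35. LRP6 fell on day 7 only (log2FC -0.54 ± 0.21 SE, adjusted p = 0.0445), with HT7 replicate 2 above the lowest NT7 sample, and this call was lost without HT7 replicate 1, HT7 replicate 3, NT7 replicate 1 or NT7 replicate 2 (adjusted p up to 0.178). The LRP6 log2FC was -0.30 without HT7 replicate 1 and -0.83 without HT7 replicate 2.

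The R-spondins and their LGR receptors moved apart: RSPO1, LGR4 and LGR6 fell on both day 5 and day 7, LGR5 rose on both, and RSPO2 and RSPO3 passed on no day. Of all genes 15.4% fell and 15.9% rose on day 5, and 23.7% did so in either direction on day 7. RSPO1 (scaffold GL018704:851607-869132), a secreted amplifier of WNT signals, was at 20.6, 19.9 and 21.2 on day 3, 21.1, 24.1 and 25.4 on day 5 and 19.5, 27.9 and 22.8 CPM on day 7 in normoxia. RSPO1 in hyperoxia was at 19.5, 14.9 and 15.3 on day 3, 14.3 and 11.5 on day 5 and 6.34, 9.796 and 5.02 CPM on day 7. No HT sample reached an NT sample of its day. RSPO1 fell with a log2FC of -0.87 ± 0.24 SE (adjusted p = 0.0137) on day 5 and -1.73 ± 0.22 SE (adjusted p = 2.57e-05) on day 7, with a difference of -1.42 ± 0.30 SE (adjusted p = 0.0058) between the day 7 and day 3 effects. Leaving out HT5 replicate 2 raised the day 5 adjusted p to 0.15.

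LGR4, the most widely expressed of the 3 receptors, held 38.2, 37.6 and 35.6 on day 3, 30.9, 37.1 and 38.8 on day 5 and 33.6, 40.5 and 34.5 CPM on day 7 in normoxia and 30.8, 29.1 and 26.8 on day 3, 20.4 and 17.6 on day 5 and 10.9, 19.5 and 8.61 CPM on day 7 in hyperoxia. The groups were apart on all 3 days, by little on day 3. LGR4 fell with a log2FC of -0.91 ± 0.25 SE (adjusted p = 0.013) on day 5 and -1.48 ± 0.22 SE (adjusted p = 9.96e-05) on day 7, and the day 5 call was lost without HT5 replicate 2 (adjusted p = 0.132).

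LGR6 (chr16:69360174-69483021), which in lung is found on smooth muscle around the airways, was at 11.5, 16.2 and 9.27 on day 3, 9.75, 8.97 and 10.8 on day 5 and 6.36, 8.43 and 5.36 CPM on day 7 in normoxia. The hyperoxia samples were at 6.57, 5.095 and 9.92 on day 3, 2.89 and 3.3 on day 5 and 1.38, 2.12 and 1.18 CPM on day 7. On day 3 the groups overlapped, and on days 5 and 7 every HT sample was lower. LGR6 fell with a log2FC of -1.67 ± 0.34 SE (adjusted p = 0.0025) on day 5 and -2.11 ± 0.31 SE (adjusted p = 8.78e-05) on day 7, and both calls held in every leave-out fit. The smooth muscle marker list, of which LGR6 is itself a member, summed to 656 to 913 CPM in HT7 and 962 to 1321 CPM in NT7, and 2 of its 6 genes, LGR6 included, fell on day 7 while 1 rose.

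LGR5 (chr4:50495644-50632880), best known as a marker of epithelial stem cells and in lung also of alveolar fibroblasts, went the other way. In normoxia it was at 2.74, 2.97 and 2.33 on day 3, 3.999, 2.42 and 1.96 on day 5 and 3.35, 1.75 and 3.92 CPM on day 7 and in hyperoxia at 2.42, 2.05 and 6.71 on day 3, 12.3 and 7.25 on day 5 and 5.19, 19.1 and 18.4 CPM on day 7. HT3 replicate 3 was above the other HT3 samples, and on days 5 and 7 all HT samples were above all NT samples, with HT7 replicate 1 the lowest of its group. LGR5 rose with a log2FC of 1.81 ± 0.56 SE (adjusted p = 0.0248) on day 5 and 2.24 ± 0.53 SE (adjusted p = 0.00288) on day 7. The day 5 call was lost in 4 of 5 leave-out fits, those without either HT5 sample, NT5 replicate 2 or NT5 replicate 3 (adjusted p up to 0.137), and the day 7 call held in all 6.

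Of the 8 secreted antagonists tested, 1 rose and 0 fell on day 5, and on day 7 2 rose and 3 fell. The counts that rose were near the 15.9% of all genes higher on day 5 and the 23.7% higher on day 7. On these days 15.4% and 23.7% of all genes fell. DKK1 (chr18:33155479-33158577), which ties up LRP5 and LRP6, was close to absent in normoxia, at 0.168, 0.504 and 0.114 on day 3, 0.0606, 0 and 0 on day 5 and 0.205, 0.135 and 0.311 CPM on day 7. In hyperoxia it was at 0, 0.0554 and 0.175 on day 3, 0.138 and 2.597 on day 5 and 86.3, 5.38 and 11.2 CPM on day 7. Up to day 5 most samples held only a few counts, HT5 replicate 2 was above them all with 48 counts, and the 3 HT7 samples, with 1496, 89 and 218 counts, were above every other sample of the series and differed widely among themselves.

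On day 5 the HT samples together held 50 counts of DKK1 and the NT samples 1 count, a ratio of 78.1 after scaling. Its exact 95% counting interval, from 13.4 to 3144, covers counting error in pooled counts and not the spread between samples. Of the 50 counts 48 were in HT5 replicate 2. The fitted log2FC of 5.73 (edgeR adjusted p = 0.0303) depends on the prior count at such numbers, and the call was lost in 4 of 5 leave-out fits, those without HT5 replicate 2 or any 1 of the NT5 samples (adjusted p up to 0.676). Without HT5 replicate 2 it was 2.42. On day 7 DKK1 rose with a log2FC of 7.24 ± 1.19 SE (adjusted p = 0.000204), and the fits without 1 sample gave 5.20 to 7.76. On day 3 it was not higher: the HT3 samples held 4 counts and the NT3 samples 15, of which 10 were in NT3 replicate 2. The pooled ratio was 0.283 with a counting interval from 0.0684 to 0.888, and edgeR's test did not pass (adjusted p = 0.701).

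SFRP1 (scaffold GL018706:1770768-1795852), a decoy that binds WNT ligands, was at 9.75, 5.59 and 8.65 on day 3, 13.7, 4.901 and 7.803 on day 5 and 11.8, 5.397 and 7.91 CPM on day 7 in normoxia. The hyperoxia values were 5.26, 7.14 and 12.5 on day 3, 15.95 and 18.7 on day 5 and 76.02, 27.9 and 35.8 CPM on day 7. The groups overlapped on day 3, and on days 5 and 7 every HT sample was above every NT sample, with HT7 replicate 1 the highest, as for DKK1. The same sample had the highest neutrophil, macrophage, endothelial and skeletal muscle marker sums of HT7, and their part was not tested. SFRP1 rose on day 7 with a log2FC of 2.47 ± 0.46 SE (adjusted p = 0.000491), and the day 7 effect exceeded that of day 3 by 2.42 ± 0.63 SE (adjusted p = 0.0165). Both calls held in every leave-out fit. The day 5 value of 0.98 ± 0.48 SE (adjusted p = 0.135) did not pass, except without NT5 replicate 1, where it was 1.44 (adjusted p = 0.0464).

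WIF1 (chr4:43863790-44015917), a secreted ligand trap, was at 137, 64.4 and 63.7 on day 3, 90.03, 141 and 103 on day 5 and 75.4, 145 and 106 CPM on day 7 in normoxia. The HT samples were at 106, 48.2 and 131 on day 3, 62.7 and 35.01 on day 5 and 10.3, 64.5 and 14.1 CPM on day 7. The groups overlapped on day 3, both HT5 samples were below the NT5 samples, and on day 7 HT replicates 1 and 3 were far below normoxia while replicate 2, the sample with the higher type 1 and type 2 marker sums, was just under it. WIF1 fell on day 7 with a log2FC of -1.88 ± 0.58 SE (adjusted p = 0.0158). The call was lost without HT7 replicate 1, HT7 replicate 3 or NT7 replicate 2 (adjusted p up to 0.0707), and without HT7 replicate 2 the log2FC was -3.14 (adjusted p = 0.000161).

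DKK3, a member of the DKK family that does not bind LRP5 or LRP6 as DKK1 does, was at 96.5, 138 and 121 on day 3, 138, 77.97 and 82.5 on day 5 and 47.6, 69.8 and 67.3 CPM on day 7 in normoxia and 88.1, 66.4 and 84.96 on day 3, 85.4 and 43.5 on day 5 and 25.8, 32.96 and 23.1 CPM on day 7 in hyperoxia. On day 5 the groups overlapped, and on days 3 and 7 every HT sample was lower. DKK3 fell on day 7 (log2FC -1.18 ± 0.27 SE, adjusted p = 0.00243). DKK2 fell on day 7 too (log2FC -0.84 ± 0.28 SE, adjusted p = 0.0244), a call lost without HT7 replicate 1, NT7 replicate 1 or NT7 replicate 2 (adjusted p up to 0.0743). SFRP2, SFRP4 and SFRP5 passed on no day, with day 7 log2FC of -0.55, -1.88 and 0.20.

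WNT9B (chr19:45782094-45834267), a ligand known from kidney and facial development, was the 1 ligand that rose, at very low levels. It was at 0.2801, 0 and 0.228 on day 3, 0.0606, 0.191 and 0.0517 on day 5 and 1.03, 0.2698 and 0.436 CPM on day 7 in normoxia and 0.296, 0.277 and 0.175 on day 3, 1.03 and 1.95 on day 5 and 3.17, 0.423 and 1.74 CPM on day 7 in hyperoxia. On day 5 both HT samples were above all NT samples, and on day 7 HT replicate 2 fell within the NT range. The HT5 samples together held 51 counts and the NT5 samples 5, a ratio of 15.9. Its exact 95% counting interval, from 6.397 to 51.1, leaves out the spread between samples. The day 5 test passed (log2FC 3.84 ± 0.95 SE, adjusted p = 0.00785), except without HT5 replicate 2 (adjusted p = 0.0932), and the DEG definition was not met on that day with the replicate block. The fits without 1 sample gave a day 5 log2FC of 3.29 to 4.59. The day 7 value of 1.62 ± 0.73 SE (adjusted p = 0.0798) did not pass, except without HT7 replicate 2 or NT7 replicate 1, where it was 2.09 (adjusted p = 0.0181) and 2.31 (adjusted p = 0.0448), and without HT7 replicate 1 it was 0.92 (adjusted p = 0.361).

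**Figure D4:**
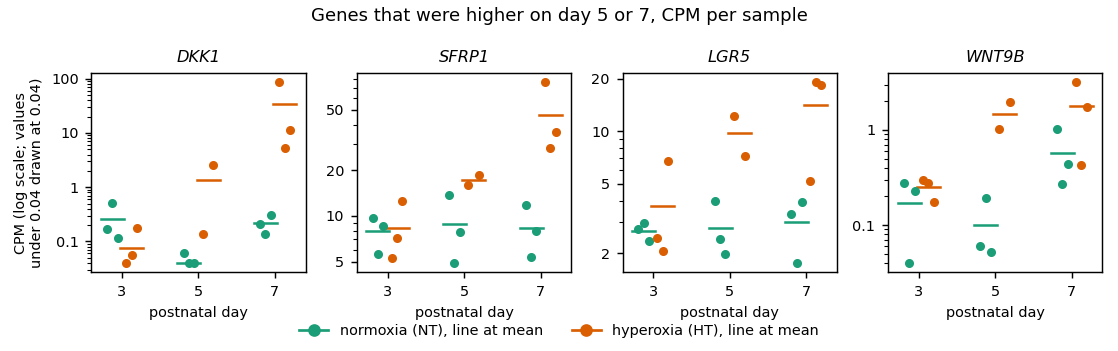
CPM per sample (log axis) of DKK1, SFRP1, LGR5 and WNT9B against postnatal day, green for normoxia and orange for hyperoxia, each point 1 sample and each line a group mean, with values and means under 0.04 CPM drawn at 0.04. The orange points of DKK1, SFRP1 and LGR5 are all above the green ones on day 7, and those of WNT9B are above them on day 5.

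The same samples stood apart in several of these genes. AXIN2, WIF1 and WNT3A were each highest in replicate 2 among the HT7 samples and higher in replicate 1 of HT5, as were the marker sums of alveolar type 2, alveolar type 1, ciliated, mesothelial, smooth muscle and heart muscle cells and of lymphocytes. The type 1, endothelial and fibroblast sums of HT7 were below those of NT7 in all 3 samples. What part any of these lists has in these genes was not tested.

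**Figure D5:**
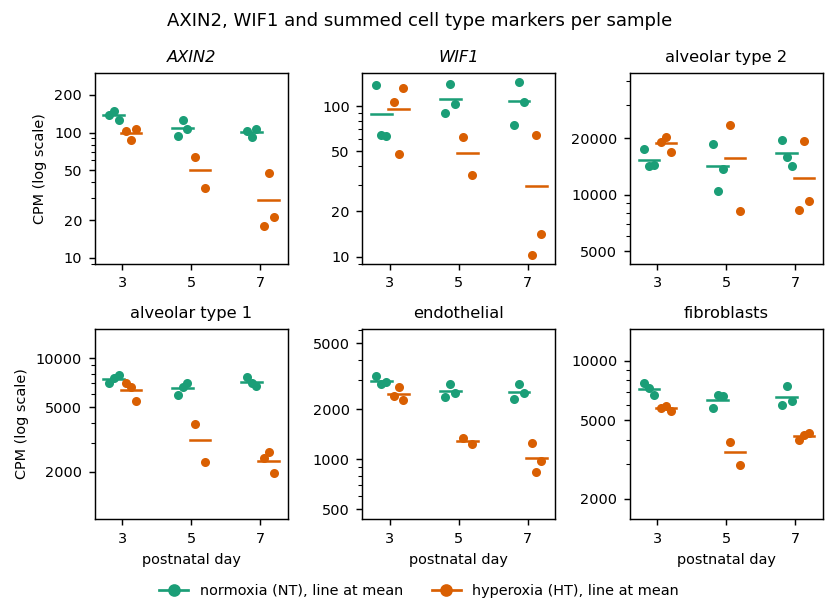
CPM per sample (log axis) of AXIN2, WIF1 and of the summed markers of alveolar type 2 cells, alveolar type 1 cells, endothelial cells and fibroblasts against postnatal day, green for normoxia and orange for hyperoxia, each point 1 sample and each line a group mean. HT7 replicate 2, the middle orange point of day 7, is the highest of its group for AXIN2, WIF1 and the type 1 and type 2 markers, but not for the endothelial markers.

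Among other extracellular and membrane proteins of the pathway (17 genes tested), 7 fell and 0 rose on day 5, and 9 fell and 2 rose on day 7. The counts of this and the following lists stand against 15.4% of all genes lower and 15.9% higher on day 5, and 23.7% in either direction on day 7. SOSTDC1, a secreted antagonist of WNT and BMP signals, fell with a log2FC of -1.20 ± 0.24 SE (adjusted p = 0.00237) on day 5 and -2.82 ± 0.23 SE (adjusted p = 1.16e-06) on day 7. ADGRA2, the endothelial co-receptor for WNT7 ligands, fell with a day 7 log2FC of -1.34 ± 0.11 SE (adjusted p = 1.71e-06), APCDD1, a membrane-bound inhibitor, with -1.79 ± 0.19 SE (adjusted p = 5.99e-06), and the proteoglycan GPC3 with -1.96 ± 0.27 SE (adjusted p = 5.1e-05).

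Inside the cell, of 17 genes of the destruction complex and Dishevelled group tested, 6 fell and 3 rose on day 5, and 8 fell and 2 rose on day 7, with a median day 7 log2FC of -0.06. The members with the smallest p were DACT1, a Dishevelled antagonist (day 7 log2FC -1.44 ± 0.16 SE, adjusted p = 8.17e-06), BTRC, the ligase that tags beta-catenin (-0.72 ± 0.11 SE, adjusted p = 0.00015), AMER1 (-1.09 ± 0.18 SE, adjusted p = 0.000197) and CTNNBIP1, which keeps beta-catenin from TCF (-0.43 ± 0.09 SE, adjusted p = 0.00183). Of 16 nuclear partners 4 fell and 1 rose on day 5, and 6 fell on day 7, among them TCF7L1 (day 7 log2FC -1.01 ± 0.12 SE, adjusted p = 1.29e-05) and SOX17, an endothelial and endodermal factor (-1.61 ± 0.26 SE, adjusted p = 0.000196).

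In the planar cell polarity and calcium branch (21 genes), 7 fell and 4 rose on each of days 5 and 7. PLCB4 fell (day 7 log2FC -1.87 ± 0.26 SE, adjusted p = 5.44e-05), as did PRICKLE2 (-0.97 ± 0.14 SE, adjusted p = 8.67e-05) and RHOA (-0.57 ± 0.11 SE, adjusted p = 0.000545), and FUZ rose (0.88 ± 0.15 SE, adjusted p = 0.000248). Of the 20 textbook target genes of beta-catenin tested, 7 were lower and 3 higher on day 5, and 4 were lower and 6 higher on day 7, the day 7 counts being near the share of all genes. VEGFA fell with a log2FC of -2.20 ± 0.22 SE (adjusted p = 4.95e-06) on day 7 and NRCAM with -1.91 ± 0.17 SE (adjusted p = 2.41e-06), whereas FOSL1, an AP-1 subunit that many stress signals induce, rose with 4.02 ± 0.47 SE (adjusted p = 1.4e-05). The median day 7 log2FC of this list was 0.11, against -0.68 for the 49 WNT genes and -0.01 for all genes tested.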

How the data were processed

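RNA of right lung homogenate, as the labels name it, was profiled in 17 samples. The deposited table holds whole-number counts per gene and sample, not normalised. The submitters' processing notes name FastQC, STAR 2.7.10a and the build OryCun2.0, and the counting program is not given in the sources used here. Samples were grouped by the oxygen level and day in the labels. The members and gene lists were chosen with earlier results of these data known. Values in every sample were given for the 25 members with the smallest adjusted p in any comparison, and for AXIN2, LEF1, WNT5A, WNT2, WNT11 and FZD4.

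From the counts, genes were kept by edgeR's filterByExpr (13142 of 13827 rows), scaled by TMM and fitted with 6 group means over all samples with edgeR 4.0.16 (R 4.3.3, quasi-likelihood test, prior count 0.125). DESeq2 1.42.0, the tool named in the study's methods, was an alternative, as were other size factors, no filter, 1 row per locus, only the groups compared, the replicate number as a block and leaving out each sample. Rows can share a locus, but no WNT gene did. The fit was tested on simulated data. It recovered 57%, 55% and 65% of genes given a log2FC of 1 in either direction on days 3, 5 and 7. For a log2FC of 2 it recovered 88%, 88% and 87%, with 6, 9 and 10 other calls. On day 3 the deviations of same-numbered samples had correlations of 0.166, 0.131 and 0.199. Samples with different numbers were not compared, so pairing is undecided, and the paired value is given beside the day 3 call. No replicate pair matched within counting noise. Annotated sequences were not used here.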

Additional observations from a re-analysis of the deposited data

Results flagged for a closer look

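For 17 WNT genes the hyperoxia effect on day 7 differed from that on day 3 in the interaction test of edgeR over all genes tested, and each is given here as the day 7 log2FC minus the day 3 log2FC. Of the ligands and their carrier, the difference was negative for WNT5A, WNT2B, WNT7A and WLS, with WNT5A at -1.23 ± 0.20 SE (adjusted p = 0.00165), WNT2B at -1.32 ± 0.36 SE (adjusted p = 0.0206), WNT7A at -1.23 ± 0.40 SE (adjusted p = 0.0427) and WLS at -0.96 ± 0.19 SE (adjusted p = 0.00401). WNT2B itself did not pass on either day, with a log2FC of 0.68 on day 3 and -0.64 on day 7. Among the receptors FZD4 was at -1.54 ± 0.36 SE (adjusted p = 0.00986), FZD2 at -0.91 ± 0.28 SE (adjusted p = 0.0329), FZD1 at -0.73 ± 0.21 SE (adjusted p = 0.0265), ROR1 at -1.57 ± 0.49 SE (adjusted p = 0.0346) and ROR2 at -1.13 ± 0.22 SE (adjusted p = 0.00459). In the R-spondin arm RSPO1 was at -1.42 ± 0.30 SE (adjusted p = 0.0058), LGR4 at -1.12 ± 0.31 SE (adjusted p = 0.0204) and LGR6 at -1.33 ± 0.41 SE (adjusted p = 0.0354). The feedback genes AXIN2 and NKD1 were at -1.34 ± 0.40 SE (adjusted p = 0.0293) and -1.49 ± 0.47 SE (adjusted p = 0.0371). DKK1 at 8.96 ± 2.14 SE (adjusted p = 0.0108), SFRP1 at 2.42 ± 0.63 SE (adjusted p = 0.0165) and FZD7 at 0.75 ± 0.23 SE (adjusted p = 0.0321) shifted up. DKK1 holds 4 counts in HT3, so that its value depends on the prior count, and its call was lost without NT3 replicate 2 (adjusted p = 0.0858). The fits without 1 sample gave 6.90 to 10.18, the lowest without HT7 replicate 1. With the replicate block FZD2, NKD1, LGR6 and FZD7 did not keep their calls (adjusted p = 0.0773, 0.0576, 0.0647 and 0.0674).

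When each of the 12 samples was left out in turn, the call was lost in 2 fits for LGR4 (HT7 replicate 1, NT7 replicate 2), in 4 for WNT2B, in 7 for FZD1, FZD2, FZD7 and LGR6, in 8 for AXIN2 and ROR1, in 9 for NKD1 and in 10 for WNT7A. The adjusted p reached 0.0539 for LGR4, 0.0546 for WNT2B, 0.0751 for FZD1, 0.0792 for FZD2, 0.0936 for LGR6, 0.0767 for AXIN2, 0.0882 for ROR1, 0.0921 for NKD1 and 0.102 for WNT7A. Leaving out HT7 replicate 1 or HT7 replicate 3 ended the calls of WNT2B, FZD1, FZD7, LGR6, AXIN2, ROR1, NKD1 and WNT7A, and leaving out HT7 replicate 3 ended that of FZD2.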

How the results depend on the processing

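Of the 65 calls of single WNT genes, none was lost with DESeq2, other size factors, no count filter or 1 row per locus and 10 were lost with the replicate block. In a fit of only the groups compared 8 of 64 were lost, and DKK1 on day 5 had no value. Each call was checked once in every fit that left out a sample of its comparison, and 120 of these 472 checks lost the call. Lost in at least 1 fit were the 1 call of day 3, 5 of 27 on day 7 and 11 of 17 in the day 7 minus day 3 contrast. Day 5 is not counted so, as leaving out an HT5 sample leaves 1 in that group. DKK3 on day 5 had a log2FC of -1.19 without HT5 replicate 1. Beside those given above, these fits added WNT2B on day 7 without HT7 replicate 2 (adjusted p = 0.0274) or NT7 replicate 3 (0.0452). FZD7 and WNT11 were added on day 7 without HT7 replicate 2 (0.00318) and HT7 replicate 1 (0.0464). In the day 7 minus day 3 contrast, leaving out HT7 replicate 2 added WNT5B, WNT3A, WIF1 and LRP6 (0.0446, 0.0025, 0.0019 and 0.00346). LRP6 was also added without NT7 replicate 3 (0.0443). LGR5 was added without HT3 replicate 3 (0.0238) or HT7 replicate 1 (0.0388), and TCF7 without NT7 replicate 1 (0.0376). No called gene changed direction under any alternative run. On day 3 the count of 1 gene became 3 with DESeq2, 3 with only the groups compared, 0 with the replicate block, 0 at an adjusted p under 0.01, and 0 in each fit without 1 sample. On day 5 the count of 20 became 10 at an adjusted p under 0.01, and 5 to 23 without 1 sample, the lowest without HT5 replicate 2. The day 5 count of DEGs, 1, became 2 with DESeq2, 0 with only the groups compared, 0 with the replicate block and 0 to 3 without 1 sample, and that of day 7, 7, became 4 to 12. The 17 calls of the day 7 minus day 3 contrast became 5 at an adjusted p under 0.01 and 8 to 21 without 1 sample.

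The deviations of same-numbered samples had correlations of 0.174, 0.109 and 0.0695 on day 7 and of 0.264 and 0.141 on day 5. Samples with different numbers were not compared, so the pairing is undecided on every day. With the replicate block FZD1 was lost on day 3 (adjusted p = 0.0725), AXIN2, FZD9 and LGR5 on day 5 (0.0507, 0.139 and 0.0863), DKK2 and WNT8A on day 7 (0.065 and 0.0531), and FZD2, FZD7, LGR6 and NKD1 in the day 7 minus day 3 contrast. It added DKK3 and ROR1 on day 5, FZD5, SFRP4 and WNT2B on day 7, and LRP6 and WIF1 in the contrast. The counts became 19 against 20 on day 5, 28 against 27 on day 7 and 15 against 17 in the contrast.

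Single-gene alternatives were run for 34 of the 49 genes, those with a call and 3 others. Among these, log2FC that had not passed the test changed sign in some fits. With the block these were FZD4 on day 3 (-0.0341) and LRP6 on day 5 (-0.0561), and with 1 row per locus LRP6 on day 5 (-0.00534). Without 1 sample the ranges that crossed 0 were for day 3 FZD4 (-0.35 to 0.27), SFRP1 (-0.36 to 0.30), LGR5 (-0.26 to 0.77), WNT9B (-0.025 to 1.14), WIF1 (-0.20 to 0.57), WNT8A (-0.15 to 0.14), LEF1 (-0.56 to 0.062) and WNT2 (-0.29 to 0.0696), for day 5 WNT2B (-0.27 to 0.085), DKK2 (-0.57 to 0.079), LRP6 (-0.058 to 0.0904) and WNT11 (-0.77 to 0.13), for the day 7 minus day 3 contrast DKK2 (-0.29 to 0.26) and WNT2 (-0.44 to 0.017), and for day 7 FZD9 (-0.62 to 0.089). The cause was not tested. With 3 samples a group, and 2 in HT5, a test that did not pass does not show that a gene was unchanged, and counts under 10 in some samples of DKK1, WNT9B, WNT3A, FZD9 and WNT8A limit their fold.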
